A study of Homo sapiens with 12 samples.

Results

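The genes described here are the receptors, ligand and first intracellular components of the TRAIL death receptor pathway. Members were taken by gene symbol: TNFRSF10A, TNFRSF10B, TNFRSF10C, TNFRSF10D, TNFSF10, FAS, FADD, CASP8, CFLAR and XIAP, all 10 of which were among the 25647 genes listed for every library. Poly(A) RNA was sequenced from 3 human carcinoma cell lines: MHCC97H, a hepatocellular carcinoma line, A549, a lung adenocarcinoma line, and HCT116, a colorectal carcinoma line. Each line was treated with TSA (trichostatin A, a histone deacetylase inhibitor) at 1 µM, with GSK126 (which blocks EZH2, the methyltransferase of the Polycomb system) at 50 µM or with S2101 (which blocks LSD1, a lysine demethylase) at 100 µM, or was left untreated, with 1 library for each line and condition and 12 libraries in all. The series was set up to look for genes of missing proteins, using epigenetic manipulation to make their products detectable. DMEM was the medium of MHCC97H and A549 and RPMI that of HCT116, so for HCT116 line and medium cannot be told apart. Neither the time of treatment nor a vehicle is given in the sources used here. The 3 lines stand as the replicates of a condition (n = 3), and no line was cultured more than once per condition. A p-value between conditions therefore rests on how far responses differ between lines, pooled over all conditions in 1 fit, not on repeat cultures. It does not measure how well the 3 lines agree on 1 compound. A p-value between lines rests on the same pooled spread, which is how far line differences vary over the conditions.

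TRAIL, encoded by TNFSF10, is a trimeric ligand that binds the death receptors DR4 (TNFRSF10A) and DR5 (TNFRSF10B). A bound receptor recruits the adaptor FADD, which in turn brings caspase-8 (CASP8) into a complex where the protease is activated; FAS uses the same adaptor and protease after binding its own ligand. The decoy receptors DcR1 (TNFRSF10C) and DcR2 (TNFRSF10D) bind TRAIL but lack a functional death domain, c-FLIP (CFLAR) competes with caspase-8 in the complex, and XIAP blocks the caspases that act downstream. Many carcinoma lines carry both death receptors and still differ in how readily TRAIL kills them.

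The promoters of CASP8, XIAP, FADD and CFLAR are shown because these 4 genes of the receptor complex and its inhibitors had lower levels under TSA in MHCC97H and A549. Each sequence is the plus strand from 250 bases before to 50 bases after a start, the first one in the RefSeq promoter table of GRCh38.p14, read from chr2:201233213-201233512 for CASP8, chrX:123859458-123859757 for XIAP, chr11:70203046-70203345 for FADD and chr2:201118466-201118765 for CFLAR. Capitals mark the GC box, GGGCGG or its reverse complement CCGCCC, the short motif bound by Sp-family factors.
CASP8: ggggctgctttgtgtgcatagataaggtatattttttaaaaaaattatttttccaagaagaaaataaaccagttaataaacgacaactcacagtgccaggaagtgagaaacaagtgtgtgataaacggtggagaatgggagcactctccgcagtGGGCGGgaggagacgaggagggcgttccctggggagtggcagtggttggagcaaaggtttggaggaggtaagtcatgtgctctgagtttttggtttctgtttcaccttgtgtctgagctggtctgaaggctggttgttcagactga
XIAP: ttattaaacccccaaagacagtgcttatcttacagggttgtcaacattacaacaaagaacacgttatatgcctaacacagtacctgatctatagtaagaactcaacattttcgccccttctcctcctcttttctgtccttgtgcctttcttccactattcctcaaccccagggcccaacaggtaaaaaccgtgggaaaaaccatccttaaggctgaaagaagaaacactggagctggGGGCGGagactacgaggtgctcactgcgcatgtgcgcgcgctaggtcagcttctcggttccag
FADD: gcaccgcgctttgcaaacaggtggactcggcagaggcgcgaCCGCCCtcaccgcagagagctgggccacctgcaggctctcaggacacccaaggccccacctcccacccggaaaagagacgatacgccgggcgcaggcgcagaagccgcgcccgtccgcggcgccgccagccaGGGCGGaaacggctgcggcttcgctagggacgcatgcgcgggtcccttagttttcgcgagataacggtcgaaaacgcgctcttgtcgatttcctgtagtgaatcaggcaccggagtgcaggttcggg
CFLAR: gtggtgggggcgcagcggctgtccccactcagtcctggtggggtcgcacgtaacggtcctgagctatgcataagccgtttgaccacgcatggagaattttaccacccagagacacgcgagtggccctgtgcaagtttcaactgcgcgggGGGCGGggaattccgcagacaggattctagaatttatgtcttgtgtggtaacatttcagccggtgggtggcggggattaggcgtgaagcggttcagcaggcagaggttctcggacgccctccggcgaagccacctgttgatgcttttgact
The windows of CASP8, XIAP and CFLAR each hold 1 GC box and that of FADD holds 2; none holds a CCAAT box (CCAAT or ATTGG, searched on both strands), so no motifs overlap. Of the 35116 promoter windows of this length in the RefSeq table, 45.0% hold a GC box and 34.6% a CCAAT box. The FADD window has 36 CpG dinucleotides and a GC content of 66.7%, and that of CFLAR has 21 and 58.7%. The CASP8 window has 6 CpG and 46.3% GC and the XIAP window 10 CpG and 48.0% GC, below the median of 14 CpG over all windows. The table lists 3 starts for CASP8, 3 for XIAP and 4 for CFLAR, and which start these cells use was not tested. The CFLAR window lies inside the annotated gene, which begins further upstream at 201116164, so it is not the window of the gene's first base.

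The 4 TRAIL receptor genes lie side by side on chromosome 8 of GRCh38.p14 (RefSeq), where they span 204970 bases from TNFRSF10B (23020133 to 23069031) through TNFRSF10C (23102921 to 23117445) and TNFRSF10D (23135588 to 23164027) to TNFRSF10A (23190452 to 23225102). CFLAR (201116164 to 201176687) and CASP8 (201233463 to 201287711) are close to each other on chromosome 2, within 171548 bases. The remaining members are scattered: TNFSF10 on chromosome 3 (172505508 to 172523430), FAS on chromosome 10 (88964050 to 89017059), FADD on chromosome 11 (70203296 to 70207390) and XIAP on chromosome X (123859708 to 123913972). FAS shares its interval with ACTA2 (0 to 13 CPM over the 12 libraries, CPM being read counts scaled to a common library size) and FAS-AS1 (up to 0.672 CPM), TNFRSF10C with LOC254896 (0.338 to 3.6 CPM), CFLAR with CFLAR-AS1 (0.137 to 1.61 CPM) and TNFRSF10B with RHOBTB2 (16.4 to 82.4 CPM). How reads shared between overlapping genes or between the 4 similar receptor genes were counted is unstated in the sources used, and the low values of TNFRSF10C and FAS in particular are therefore uncertain.

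Library totals ran from 14468304 to 19061367 counts, so that 3 counts correspond to 0.157 to 0.207 CPM. The summed level of 5 epithelial markers was 3000 to 5600 CPM over the libraries and came mostly from keratins, with KRT8 at 1600 CPM or more in each. EPCAM, an epithelial adhesion molecule, was at 0.187 to 0.889 CPM in MHCC97H and 1.93 to 8.1 CPM in A549, against 109 to 296 CPM in HCT116, and CDH1 (E-cadherin) was at 5.55 to 14.6, 13.4 to 33.2 and 73.7 to 167 CPM in the same lines. HNF4A, a hepatocyte transcription factor that gut epithelium also uses, was at 45.0 to 69.9 CPM in MHCC97H, 9.32 to 28.7 CPM in A549 and 7.75 to 10.1 CPM in HCT116, but albumin (ALB) was at 0.205 to 1.04 CPM in MHCC97H. NKX2-1, a defining lung marker, was at 0 to 0.878 CPM in A549. Of 5 colon markers, HCT116 had CDX2 at 12 to 12.6 CPM, while CDX1 was at 0, CDH17 reached 1.81, LGR5 0.873 and VIL1 0.47 CPM. The summed colon markers were 111 to 180 CPM in MHCC97H, with CDH17 at 66.5 to 124 CPM, against 12.4 to 15.6 CPM in HCT116. The summed lung markers were 2.49 to 4.66 CPM in A549 against 4.49 to 6.85 CPM in HCT116. Neither sum followed the labelled origin. The summed liver markers did, at 56.8 to 94.0 CPM in MHCC97H, 9.73 to 29.3 CPM in A549 and 8.17 to 10.9 CPM in HCT116. APOB, a liver marker, was at 10.7 to 22.2 CPM in MHCC97H and at most 0.27 CPM in A549. Of 5 leukocyte markers, PTPRC did not pass 0.615 CPM in any library. Their sum, up to 152 CPM, came mostly from the lysosomal protein CD68. CD68 was at 98.1 to 148 CPM in MHCC97H, 24.8 to 71.6 CPM in A549 and 9.76 to 22.8 CPM in HCT116. The summed level of 4 endothelial markers was 44.0 to 92.3 CPM in MHCC97H, 2.19 to 10.7 CPM in A549 and 3.68 to 8.2 CPM in HCT116. In MHCC97H, PECAM1 was at 21.9 to 72.1 CPM and KDR at 12.7 to 19.1 CPM, while VWF reached 5.26 CPM and CDH5 0.205 CPM. The summed level of 5 fibroblast markers was higher under TSA, at 59.6 CPM in treated and 7.36 CPM in untreated MHCC97H, 99.3 and 11.3 CPM in A549, and 72.5 and 26.2 CPM in HCT116. Of these 5, 1 reached 1 CPM in all 4 libraries of each line, DCN was at 0 throughout in A549 and COL1A2 in HCT116, and COL1A1 reached 37.8 CPM in MHCC97H, 98.1 CPM in A549 and 69.9 CPM in HCT116; the part of this list in the results below was not tested. In the A549 library labelled S2101, 29 genes under 0.1 CPM in untreated A549 reached 1 CPM, and all 29 also reached 1 CPM in A549 under TSA, against 5.5% of all A549 genes that low when untreated. The corresponding numbers were 0 genes in MHCC97H and 4 genes, 3 of them also on under TSA, in HCT116. Results of contrasts with S2101 are therefore also given without that library where it changed a call.

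In untreated cells the death receptor DR5 had the highest mean of the members per kilobase, and by that measure it was the most abundant in A549 and HCT116. The order, and the size of any ratio between genes, depends on the length used. That length is 4154 bases for TNFRSF10B, 8460 for XIAP and 11061 for CFLAR. In CPM, which uses no length, the untreated means were 182 for TNFRSF10B, 203 for XIAP and 177 for CFLAR. On the length-corrected scale (RPKM, reads per kilobase of the longest transcript, scaled by library total), TNFRSF10B averaged 42.1 ± 10.3 RPKM in untreated cells (SD over 3 lines, n = 3), and its lowest line, at 30.3 RPKM, was above the highest line of the other death receptor, TNFRSF10A, which averaged 19.0 ± 1.25 RPKM. FADD followed TNFRSF10B at 23.9 ± 6.6 RPKM (16.3 to 28.2), without overlap with it. XIAP averaged 22.2 ± 13.3 RPKM, and in MHCC97H it was above TNFRSF10B, at 37.4 against 30.3 RPKM. CASP8 at 16.2 ± 4.13 RPKM, CFLAR at 15 ± 3.01 RPKM and the decoy receptor TNFRSF10D at 10.8 ± 5.35 RPKM came next, and from FADD down to TNFRSF10D each gene overlapped its neighbour in the order. FAS, at 2.1 ± 1.75 RPKM, lay below TNFRSF10D without overlap, and it overlapped TNFRSF10C, the other decoy receptor, at 0.918 ± 0.588 RPKM. The ligand gene TNFSF10 was last, at 0.106 ± 0.112 RPKM. All 3 lines thus carried transcripts of both death receptors, the adaptor and caspase-8, and had few of the ligand.

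**Figure D1:**
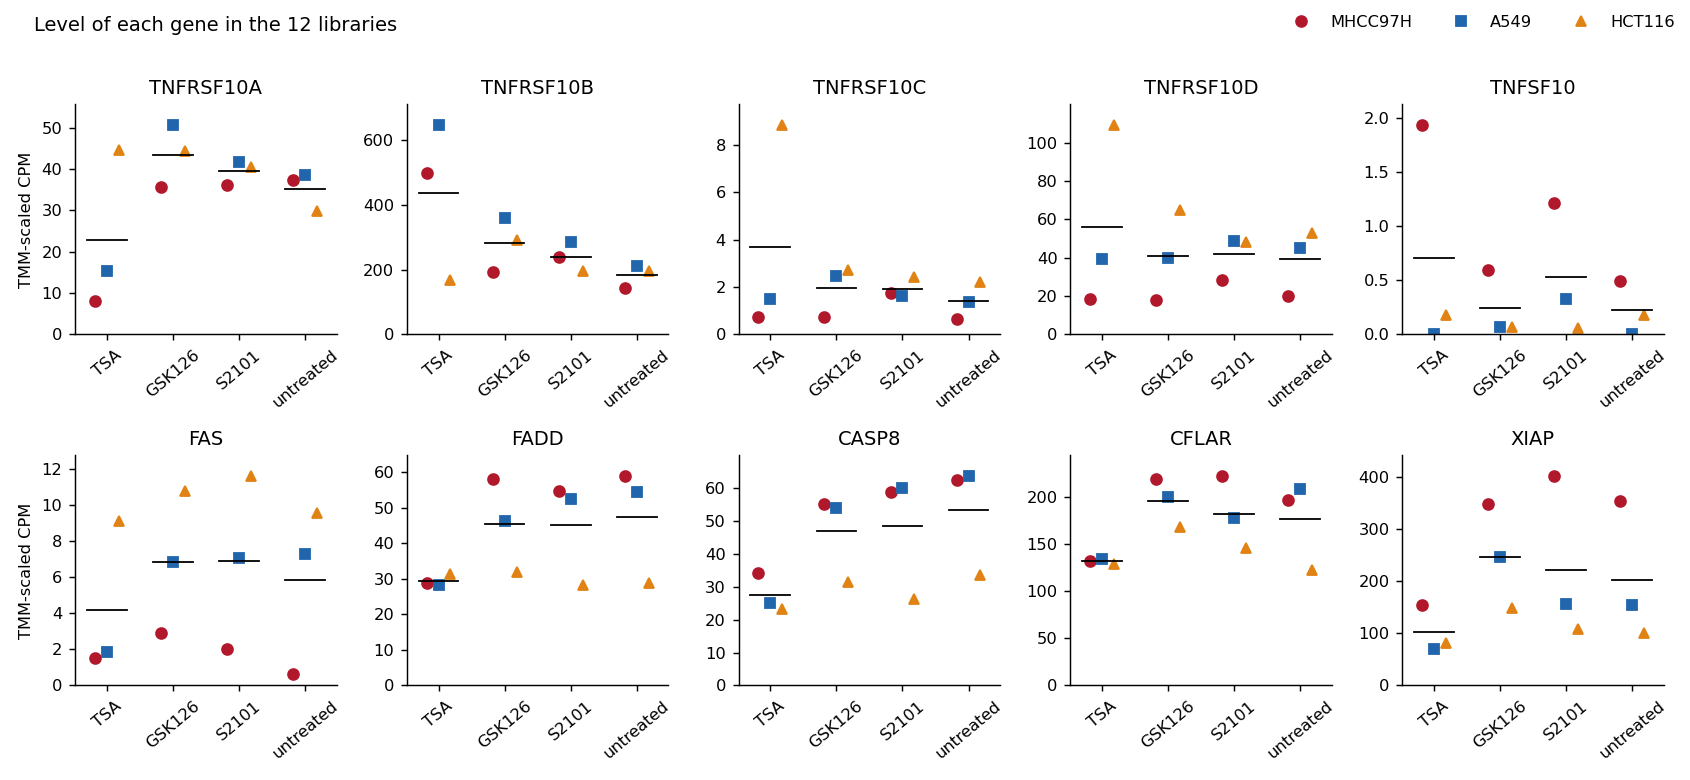
Level of the 10 genes in each of the 12 libraries, in TMM-scaled CPM on a linear axis for each gene, with TSA, GSK126 and S2101 left of untreated and 1 symbol per cell line. Under TSA, TNFRSF10B stands at 499 CPM in MHCC97H and 646 CPM in A549, above the highest untreated library at 210 CPM, while CASP8 and XIAP are below the untreated library of the same line in all 3 lines.

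The first comparison asks what each compound did to these transcripts relative to untreated cells of the same lines. Under TSA, DR5 (TNFRSF10B) was higher and CASP8 and XIAP were lower; the other 6 members tested did not pass, and the ligand was too low to test. Of the 9 members tested, 1 was called higher and 2 lower (edgeR's quasi-likelihood F test over all 12 libraries with condition and line as terms, Benjamini-Hochberg adjusted p under 0.05 over 16394 genes), against 17.1% of all genes called higher and 17.1% called lower, 34.1% in both directions. The share of members called was close to that of the whole table. In bulk RNA, fewer cells carrying a transcript and less of it per cell cannot be told apart. The median log2 change of the 9 members was -0.39, and that of all genes tested was 0.073.

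TNFRSF10B had 499 CPM in MHCC97H, 646 CPM in A549 and 168 CPM in HCT116 under TSA, against 142, 210 and 195 CPM in the same lines untreated. The TSA libraries of MHCC97H and A549 were above every untreated library, and that of HCT116 was below its own. Its fitted log2 change was 1.18 (SE 0.37, adjusted p = 0.0371 by edgeR), a rise of 3.52-fold in MHCC97H and 3.08-fold in A549 with 0.863-fold in HCT116. The partner death receptor went the other way: TNFRSF10A had 8.13, 15.4 and 44.7 CPM in MHCC97H, A549 and HCT116 under TSA, against 37.3, 38.6 and 29.9 CPM untreated. Its level was below every untreated library in 2 lines and above them in HCT116, and over the 3 lines it did not pass (log2 change -0.83, SE 0.46, adjusted p = 0.184).

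As a ratio of RPKM values, TNFRSF10B stood 26.1 times above TNFRSF10A in MHCC97H under TSA, 17.8 times in A549 and 1.6 times in HCT116, against 1.61, 2.31 and 2.77 times in the same untreated lines. The ratio was 2.29, 3.03 and 2.81 under GSK126 and 2.81, 2.89 and 2.04 under S2101. Only the TSA libraries of MHCC97H and A549 lay outside 1.6 to 3.03. The mean log2 change of the ratio under TSA was 2.06 ± 2.52 (SD, n = 3; exact two-sided sign-flip permutation test, p = 0.5, where 3 lines allow no p below 0.25).

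The decoy receptors differed from the death receptors in which line moved. TNFRSF10D had 18.7 CPM in MHCC97H, 39.5 CPM in A549 and 109 CPM in HCT116 under TSA, against 20.2, 44.8 and 53.0 CPM untreated, a value 2.06 times the untreated one in HCT116 and 0.925 and 0.882 times in the others. Under TSA TNFRSF10C had 11 reads in MHCC97H, 24 in A549 and 146 in HCT116, against 9, 20 and 38 reads untreated, which is 0.733, 1.49 and 8.84 CPM against 0.63, 1.38 and 2.21 CPM. For both decoys the HCT116 library under TSA was the highest of all 12. Neither passed over the 3 lines (TNFRSF10D log2 change 0.3, SE 0.3, adjusted p = 0.453; TNFRSF10C 1.03, SE 0.59, adjusted p = 0.195). The summed decoy level divided by the summed death receptor level, in RPKM, under TSA was 0.0458 in MHCC97H, 0.0733 in A549 and 0.554 in HCT116, against 0.11, 0.186 and 0.256 untreated. It was lower than untreated in 2 lines and higher in HCT116, with a mean log2 change of -0.5 ± 1.4 (SD, n = 3; exact permutation p = 0.5).

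The TRAIL gene itself, TNFSF10, had under TSA 29 reads in MHCC97H, 0 in A549 and 3 in HCT116, against 7, 0 and 3 reads untreated. GSK126 libraries held 9, 1 and 1 reads and S2101 libraries 21, 5 and 1, with the lines in that order. The highest level was 1.93 CPM, and the gene fell below the filter on low counts, so no test was made and a difference between conditions was not detectable in A549 or HCT116 at this depth. FAS, the receptor that shares FADD and caspase-8 with the TRAIL receptors, had 1.53 CPM in MHCC97H, 1.87 CPM in A549 and 9.14 CPM in HCT116 under TSA, against 0.63, 7.29 and 9.56 CPM untreated. The lines diverged, with 0.256 times the untreated level in A549 and 2.43 times in MHCC97H, and the MHCC97H value rests on 23 and 9 reads (log2 change over the lines -0.38, SE 0.5, adjusted p = 0.581).

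Inside the complex, caspase-8 was lower in all 3 lines. CASP8 had 34.3 CPM in MHCC97H, 25.1 CPM in A549 and 23.3 CPM in HCT116 under TSA, against 62.4, 63.6 and 33.7 CPM untreated. Each TSA library was below the untreated one of its line, at 0.549, 0.394 and 0.692 times its level, although the groups overlap where MHCC97H under TSA meets untreated HCT116. CASP8 fell by 0.89 on the log2 scale (SE 0.2, adjusted p = 0.00973), the smallest adjusted p among the members in this comparison. The adaptor FADD had 28.7, 28.3 and 31.4 CPM in MHCC97H, A549 and HCT116 under TSA, against 58.8, 54.3 and 28.7 CPM untreated. Its level differed little between lines under TSA, about where untreated HCT116 already was, and the change did not pass (log2 -0.58, SE 0.24, adjusted p = 0.0857).

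Both inhibitors were lower in MHCC97H and A549, and only XIAP was called over the 3 lines. XIAP, which binds and blocks downstream caspases, had 154 CPM in MHCC97H, 70.6 CPM in A549 and 81.7 CPM in HCT116 under TSA, against 355, 154 and 101 CPM untreated. It was lower in all 3 lines, at 0.434, 0.459 and 0.812 times the untreated level, and fell by 0.86 on the log2 scale (SE 0.23, adjusted p = 0.0204). CFLAR, the competitor of caspase-8, had 132, 134 and 129 CPM under TSA, against 197, 209 and 123 CPM untreated. The TSA libraries of the 3 lines were within a few CPM of each other, the untreated ones were not, and CFLAR did not pass (log2 change -0.39, SE 0.16, adjusted p = 0.0903). The RPKM ratio of CFLAR to CASP8 under TSA was 1.08 in MHCC97H, 1.49 in A549 and 1.54 in HCT116, against 0.882, 0.917 and 1.02 untreated. It was higher in 3 of 3 lines, by 0.53 ± 0.21 on the log2 scale (SD, n = 3; exact permutation p = 0.25, the smallest possible here).

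The TSA calls depend on the lines. Without MHCC97H or without A549 none of the 9 members was called, where the whole table had 7.05% and 0.0741% of its genes called, while without HCT116 6 members were called among 39.9% of all genes: TNFRSF10B higher, and TNFRSF10A (log2 change -1.7, adjusted p = 0.0059), FADD (-0.95, adjusted p = 0.00787), CASP8, CFLAR (-0.58, adjusted p = 0.0329) and XIAP lower. With the line term left out, none was called, among 1.59% of all genes (adjusted p = 0.16 for TNFRSF10B, 0.219 for CASP8 and 0.432 for XIAP).

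**Figure D2:**
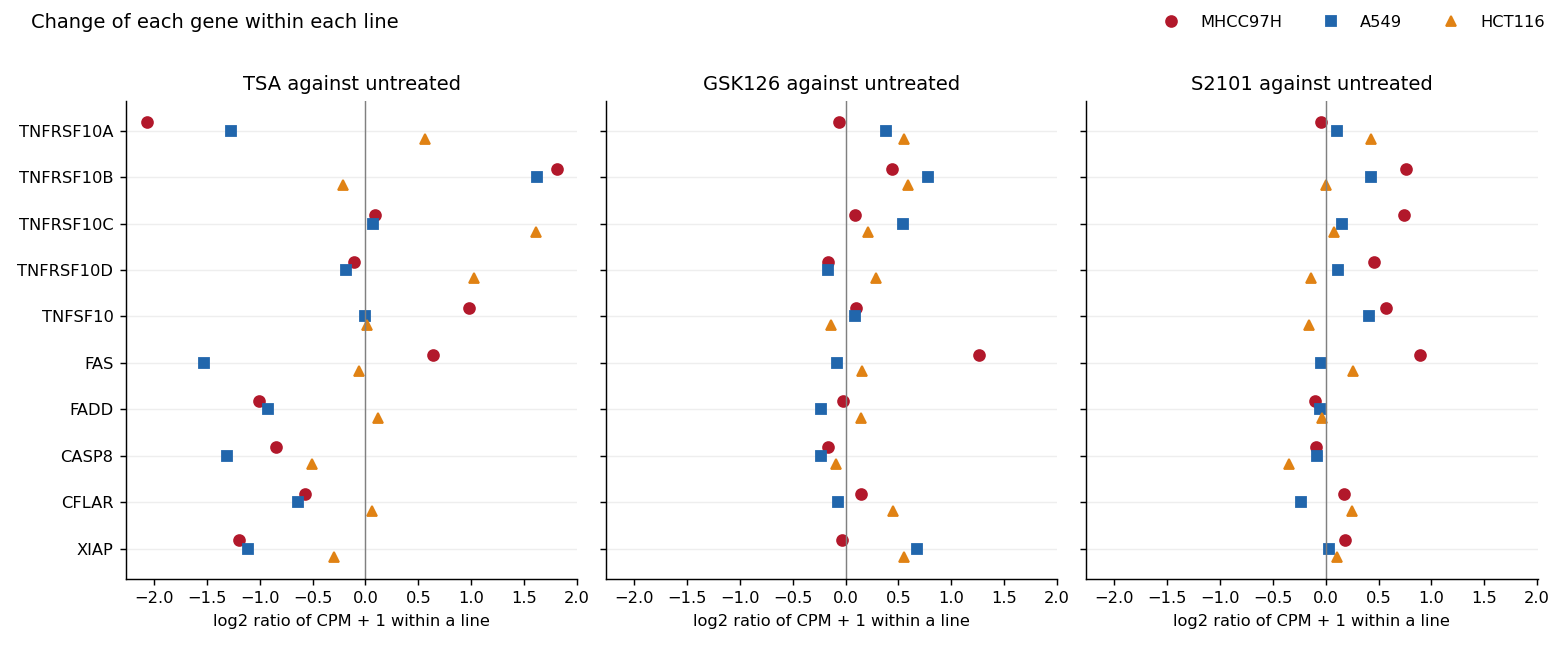
Log2 ratio of each compound's library to the untreated library of the same line, with 1 CPM added to both levels, for the 10 genes; each symbol is 1 library pair. Under TSA, HCT116 (triangles) sits apart from MHCC97H and A549 for TNFRSF10A (0.56 against -2.07 and -1.27), TNFRSF10B (-0.21 against 1.81 and 1.62) and TNFRSF10D (1.03 against -0.11 and -0.18).

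Under GSK126, no member passed. Of 9 tested, 0 were called, 0 had an unadjusted p under 0.05 and DESeq2 also called 0; over all genes edgeR called 0 (0%), 2784 genes had an unadjusted p under 0.05 and DESeq2 called 1206 (7.36%). TNFRSF10B had 192 CPM in MHCC97H, 360 CPM in A549 and 293 CPM in HCT116 under GSK126, against 142, 210 and 195 CPM untreated. It was above untreated in 3 of 3 lines, by 1.36, 1.72 and 1.5 times, with a fitted log2 change of 0.61 (SE 0.36, 95% interval -0.2 to 1.42, adjusted p = 0.454). In a fit to the 9 libraries other than TSA the change was 0.64 and passed (adjusted p = 0.0429), as did 13.5% of all genes in that fit. XIAP had 348, 246 and 148 CPM in MHCC97H, A549 and HCT116 under GSK126, against 355, 154 and 101 CPM untreated, level in the first line and 1.6 and 1.47 times the untreated level in the others (log2 change 0.41, SE 0.23, adjusted p = 0.412). TNFRSF10A had 35.7, 50.6 and 44.3 CPM under GSK126, against 37.3, 38.6 and 29.9 CPM untreated, a log2 change of 0.26 (95% interval -0.73 to 1.25). FAS in MHCC97H had 44 reads under GSK126 and 9 reads untreated, a 4.63-fold difference between 2 libraries, whereas A549 and HCT116 were at 0.937 and 1.13 times their untreated level.

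CASP8, FADD and CFLAR moved little under GSK126. CASP8 had 55.3, 53.9 and 31.5 CPM under GSK126, against 62.4, 63.6 and 33.7 CPM untreated, lower in each line by a small step (log2 change -0.17, 95% interval -0.61 to 0.26). FADD averaged 45.4 ± 13.1 CPM under GSK126 and 47.3 ± 16.2 CPM untreated (SD, n = 3 each), and CFLAR averaged 196 ± 25.6 and 177 ± 46.7 CPM. The decoy to death receptor ratio was lower than untreated in 3 of 3 lines, at 0.0822, 0.111 and 0.209 under GSK126 against 0.11, 0.186 and 0.256 untreated, a mean log2 change of -0.49 ± 0.24 (SD, n = 3; exact permutation p = 0.25). The decoys themselves did not pass: TNFRSF10D averaged 40.9 ± 23.6 CPM under GSK126 and 39.3 ± 17.1 CPM untreated, and TNFRSF10C averaged 1.96 ± 1.08 and 1.41 ± 0.792 CPM (SD, n = 3 each).

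Under S2101, 0 of the 9 members were called and 0 had an unadjusted p under 0.05; DESeq2 called 0 as well. Over all genes edgeR called 0 (0%), with 821 genes at an unadjusted p under 0.05 and 23 called by DESeq2 (0.14%). TNFRSF10B had 240, 284 and 195 CPM in MHCC97H, A549 and HCT116 under S2101, against 142, 210 and 195 CPM untreated. The first 2 lines were 1.69 and 1.35 times their untreated level and HCT116 was level with it (log2 change 0.38, SE 0.36, 95% interval -0.44 to 1.19). XIAP had 402, 157 and 109 CPM under S2101, against 355, 154 and 101 CPM untreated (log2 change 0.11, 95% interval -0.4 to 0.62), and CASP8 had 58.8, 60.2 and 26.3 CPM against 62.4, 63.6 and 33.7 CPM (log2 change -0.17, 95% interval -0.6 to 0.27). TNFRSF10A averaged 39.5 ± 2.89 CPM under S2101 and 35.3 ± 4.69 CPM untreated, FADD 45.1 ± 14.7 and 47.3 ± 16.2 CPM, CFLAR 182 ± 38.2 and 177 ± 46.7 CPM, and TNFRSF10D 41.7 ± 11.7 and 39.3 ± 17.1 CPM (SD, n = 3 each). None of these groups separated from untreated. In MHCC97H, FAS had 35 reads under S2101 and 9 untreated, and TNFRSF10C had 30 and 9.

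The compounds were also set against each other; doses differ, and the 3 compound comparisons with untreated share the same untreated libraries. Compared with GSK126, TSA gave lower CASP8, CFLAR and XIAP: 0 of 9 members were called higher and 3 lower, against 14.5% of all genes called higher and 14.2% lower (28.7% in all). The log2 difference was -1.27 for XIAP (SE 0.23, adjusted p = 0.00565), -0.72 for CASP8 (SE 0.2, adjusted p = 0.0243) and -0.56 for CFLAR (SE 0.16, adjusted p = 0.0314). XIAP averaged 102 ± 45.4 CPM under TSA and 248 ± 100.0 CPM under GSK126, and CFLAR averaged 132 ± 2.75 CPM under TSA and 196 ± 25.6 CPM under GSK126 (SD, n = 3 each). The 3 TSA libraries of CFLAR all lay below the 3 GSK126 libraries, the lowest of which was at 168 CPM. Without A549 no member was called, among 0% of all genes; without MHCC97H 1 was, among 6.66%; and without HCT116 6 were, among 33.8%, so the member counts moved with those of the whole table.

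Compared with S2101, TSA gave lower XIAP (log2 difference -0.97, SE 0.23, adjusted p = 0.0169) and lower CASP8 (-0.73, SE 0.2, adjusted p = 0.0267), with 2 of 9 members called lower and 0 higher against 13% of all genes lower and 13.2% higher (26.3% in all). When the A549 library labelled S2101 was left out, 1 member was called, among 11.5% of all genes, and CASP8 was not (-0.62, adjusted p = 0.106). The count was 0 without MHCC97H, 0 without A549 and 6 without HCT116, where 0%, 0.105% and 31.6% of all genes were called. Between GSK126 and S2101, 0 of 9 members and 0 of all genes (0%) were called by edgeR, with 0 members and 455 genes at an unadjusted p under 0.05 and 0 members called by DESeq2. The intervals of these differences were wide: 0.23 for TNFRSF10B (95% interval -0.58 to 1.04), 0.3 for XIAP (-0.21 to 0.81), -0.01 for CASP8 (-0.44 to 0.43) and 0.14 for FAS (-0.95 to 1.22), all on the log2 scale, so the data do not show that the compounds act alike on these genes.

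**Figure D3:**
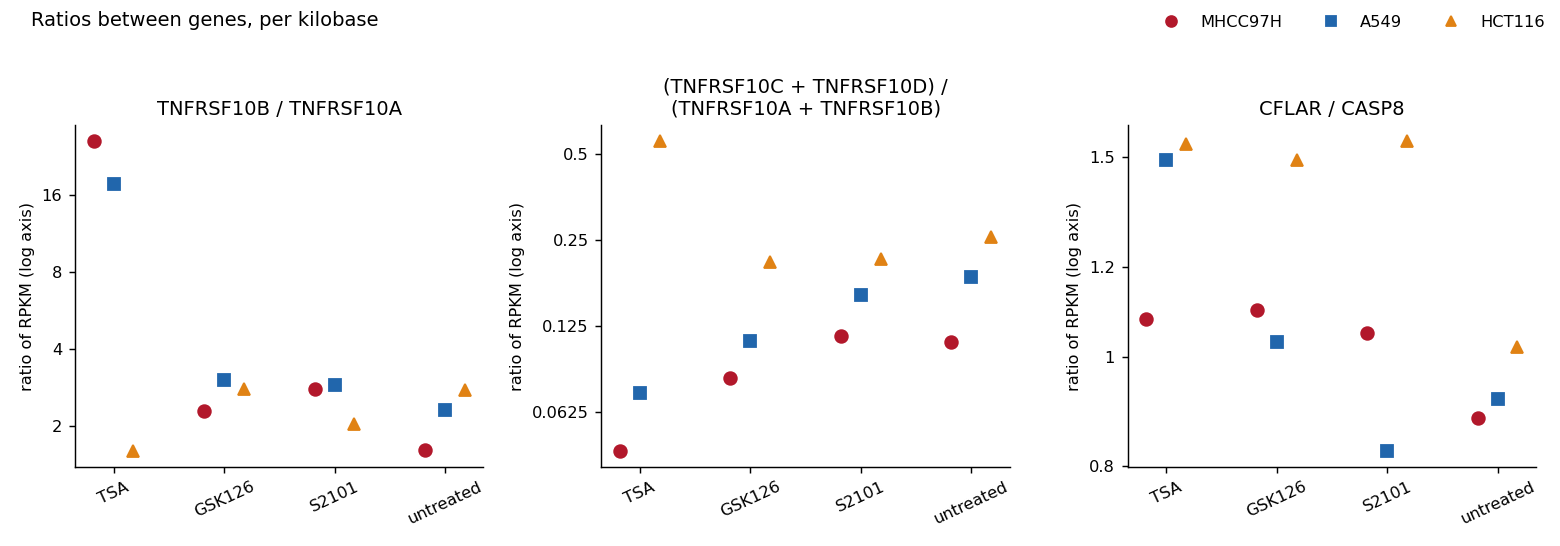
Ratios between RPKM values in each library on log axes: DR5 to DR4, the summed decoy receptors to the summed death receptors, and CFLAR to CASP8, by condition with untreated at the right. The DR5 to DR4 ratio is 26.1 in MHCC97H and 17.8 in A549 under TSA, and between 1.6 and 3.03 in every other library; the decoy to death receptor ratio is highest in HCT116 under TSA, at 0.554.

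The cell lines differed in their receptor and inhibitor levels. MHCC97H had less FAS and TNFRSF10D and more XIAP than either other line, and HCT116 had less CASP8 than either other line. Against A549, 1 of 9 members was called higher in MHCC97H and 2 lower, beside 20.7% and 22.8% of all genes (43.5% in all). Against HCT116, 4 were called higher in MHCC97H and 3 lower, beside 27.4% and 27.8% of all genes (55.1% in all). Between A549 and HCT116, 1 was higher in A549 and 0 lower, beside 23.1% and 21.1% of all genes (44.1% in all). Each line's 4 libraries come from 4 conditions, which the fit holds as a term.

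FAS ran from 0.63 to 2.92 CPM in MHCC97H (4 libraries), against 1.87 to 7.29 CPM in A549 and 9.14 to 11.6 CPM in HCT116. MHCC97H and HCT116 did not overlap. The log2 difference was -1.68 for MHCC97H against A549 (SE 0.45, adjusted p = 0.014) and -2.6 for MHCC97H against HCT116 (SE 0.45, adjusted p = 0.00104). TNFRSF10D ran from 17.8 to 28.2 CPM in MHCC97H, against 39.5 to 48.9 CPM in A549 and 48.0 to 109 CPM in HCT116, so that MHCC97H stood below both other lines in every condition (log2 difference -1.03, SE 0.26, adjusted p = 0.0111 against A549, and -1.68, SE 0.27, adjusted p = 0.000708 against HCT116). TNFRSF10C ran from 0.63 to 1.73 CPM in MHCC97H, against 2.21 to 8.84 CPM in HCT116 (log2 difference -1.94, SE 0.52, adjusted p = 0.0113).

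XIAP ran from 154 to 402 CPM in MHCC97H, against 70.6 to 246 CPM in A549 and 81.7 to 148 CPM in HCT116, and of the MHCC97H libraries only that of TSA lay within the range of A549. Its log2 difference was 1.05 for MHCC97H against A549 (SE 0.2, adjusted p = 0.00263) and 1.46 for MHCC97H against HCT116 (SE 0.2, adjusted p = 0.000292). CASP8 averaged 52.7 ± 12.6 CPM in MHCC97H and 50.7 ± 17.5 CPM in A549, against 28.7 ± 4.76 CPM in HCT116 (SD, n = 4 each). It was lower in HCT116 than in either other line, with log2 differences of 0.84 for MHCC97H against HCT116 (SE 0.17, adjusted p = 0.00249) and 0.75 for A549 against HCT116 (SE 0.17, adjusted p = 0.00624). FADD averaged 50.1 ± 14.4 CPM in MHCC97H and 30.0 ± 1.86 CPM in HCT116 (log2 difference 0.67, SE 0.21, adjusted p = 0.0214), and CFLAR averaged 193 ± 41.8 and 142 ± 20.4 CPM (0.42, SE 0.14, adjusted p = 0.0285; SD, n = 4 each). The ranges of FADD and CFLAR overlapped between the lines. The death receptors TNFRSF10A and TNFRSF10B were not called between any pair of lines; TNFRSF10B averaged 268 ± 159 CPM in MHCC97H, 375 ± 191 CPM in A549 and 213 ± 54.8 CPM in HCT116. When the libraries of 1 condition were left out, the number of members called between MHCC97H and A549 ran from 1 to 4, between MHCC97H and HCT116 from 4 to 7, the lowest count of both without the untreated libraries, and between A549 and HCT116 from 0 to 4. The share of all genes called ran from 25.1 to 56.5%, from 39.3 to 65.2% and from 27.4 to 57% in the same comparisons.

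Over the 12 libraries, with each line's mean removed from log2(CPM + 1), TNFRSF10A went with FADD (Pearson's r = 0.94), XIAP (0.89) and CFLAR (0.9), and against TNFRSF10B (-0.78). FADD and CASP8 went together (0.89), as did CFLAR and XIAP (0.91) and the decoys TNFRSF10C and TNFRSF10D (0.86), while TNFRSF10B and FADD ran opposite (-0.88). Among all genes of at least 5 CPM on average, the most alike to TNFRSF10B were TNKS2 (0.996) and TPRG1L (0.982), to TNFRSF10A HHEX (0.994) and PRR5L (0.987), to TNFRSF10C ARRDC3 (0.945) and MDM2 (0.938), and to TNFRSF10D TCF7L2 (0.865) and F5 (0.864). They were URGCP (0.99) and GABPB1-AS1 (0.988) for FADD, OARD1 (0.985) and ZC3HAV1 (0.983) for CASP8, DYNC1I2 (0.974) and CEBPD (0.965) for CFLAR, FNDC3B (0.995) and IL4R (0.991) for XIAP, and TRIM7 (0.925) and NAAA (0.922) for FAS. The 12 points share lines, conditions and library totals, and the values describe these libraries and carry no test.

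The rest of the pathway was read from 5 gene lists. Under TSA 3 of 10, 7 of 18, 4 of 13, 2 of 9 and 8 of 17 of their tested genes were called, in the order given below, against 34.1% of all genes (17.1% higher and 17.1% lower), and these counts show nothing particular to the lists. Among other death receptors and their ligands, 10 of 15 were tested and 1 was higher and 2 lower under TSA (median log2 change -0.53). NGFR, the p75 neurotrophin receptor, had 43.7, 127 and 200 CPM in MHCC97H, A549 and HCT116 under TSA, against 0.0701, 0.0688 and 16.1 CPM untreated (log2 change 5.83, SE 1.32, adjusted p = 0.0109). TNFRSF1A, the TNF receptor, had 39.1, 42.0 and 30.5 CPM under TSA, against 246, 261 and 72.4 CPM untreated (log2 change -2.15, SE 0.28, adjusted p = 0.00191). LTBR, the lymphotoxin beta receptor, had 62.7, 14.9 and 37.7 CPM under TSA, against 305, 119 and 71.7 CPM untreated (-1.93, SE 0.39, adjusted p = 0.00744). NGFR was thus high, and TNFRSF1A and LTBR low, under TSA in 3 of 3 lines.

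Among adaptors, kinases and regulators of the death-inducing complex, 18 of 20 were tested, with 1 higher and 6 lower under TSA (median log2 change -0.4). MLKL, the effector of necroptosis, had 2.4, 3.8 and 4.36 CPM in MHCC97H, A549 and HCT116 under TSA, against 16.7, 35.6 and 8.1 CPM untreated (log2 change -2.11, adjusted p = 0.0197). TRAF3, an adaptor of TNF receptor signalling, fell by 1.82 (adjusted p = 0.00272), FAIM, an inhibitor of FAS-mediated death, by 1.4 (adjusted p = 0.0229) and CASP8AP2, a caspase-8 binding protein, by 0.64 on the log2 scale (adjusted p = 0.0433). CYLD, a deubiquitinase that acts on RIPK1 complexes, rose by 0.97 (adjusted p = 0.0284), with 101, 76.9 and 23.3 CPM under TSA, against 39.7, 33.2 and 19.8 CPM untreated.

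In the executioner arm and its mitochondrial link, all 13 genes were tested, with 2 higher and 2 lower under TSA (median log2 change -0.1). BID, which caspase-8 cleaves to engage mitochondria, had 11.5, 5.04 and 7.81 CPM in MHCC97H, A549 and HCT116 under TSA, against 47.2, 33.8 and 32.2 CPM untreated (log2 change -2.27, SE 0.22, adjusted p = 0.00116). The groups did not overlap. HTRA2, a mitochondrial protease that antagonises inhibitors of apoptosis, had 44.5, 42.8 and 43.2 CPM under TSA, against 22.1, 25.7 and 24.4 CPM untreated (0.86, SE 0.17, adjusted p = 0.00665). CASP9, the mitochondrial initiator caspase, rose by 1.37 (adjusted p = 0.0176) and CASP6, an executioner caspase, fell by 0.73 on the log2 scale (adjusted p = 0.0257). Among the 9 inhibitors of apoptosis and their antagonists other than XIAP, 0 were higher and 2 lower (median log2 change 0.07). BIRC5 (survivin) had 29.9, 72.4 and 120 CPM under TSA, against 155, 215 and 203 CPM untreated (-1.46, adjusted p = 0.0348). BIRC7 (livin), at 1.73, 0.561 and 0.242 CPM under TSA and 17.3, 2.55 and 0.35 CPM untreated, fell by 2.45 (adjusted p = 0.0371). BIRC7 had 26, 9 and 4 reads under TSA against 247, 37 and 6 untreated, so its HCT116 values are near the floor.

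Of 17 transcription factors and stress genes, all were tested, with 2 higher and 6 lower under TSA (median log2 change 0.32). CDKN1A, an inhibitor of cyclin-dependent kinases, had 653, 255 and 475 CPM in MHCC97H, A549 and HCT116 under TSA, against 30.3, 44.0 and 143 CPM untreated (log2 change 2.91, SE 0.45, adjusted p = 0.00277). ATF3, a stress-induced factor, rose by 2.45 (adjusted p = 0.0108). NFKB1, a subunit of NF-kappaB, fell by 2.51 (adjusted p = 0.0043) and TRIB3, a pseudokinase of the stress response, by 2.52 on the log2 scale (adjusted p = 0.0045). Under GSK126 and under S2101, 0 genes of any of the 5 lists were called by edgeR, while the genes at an unadjusted p under 0.05 numbered 0 to 7 per list under GSK126 and 0 to 1 under S2101, and DESeq2 called 0 to 2 per list under GSK126 and 0 under S2101; the median log2 changes of the lists ran from -0.12 to 0.34 under GSK126 and from -0.09 to 0.29 under S2101. Over all genes tested, edgeR also called 0% under either compound. An unadjusted p under 0.05 was found for 2784 genes under GSK126 and 821 under S2101, and DESeq2 called 7.36% and 0.14% of all genes. Without A549, 0 genes of any list were called under TSA, where 0.0741% of all genes were called.

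**Figure D4:**
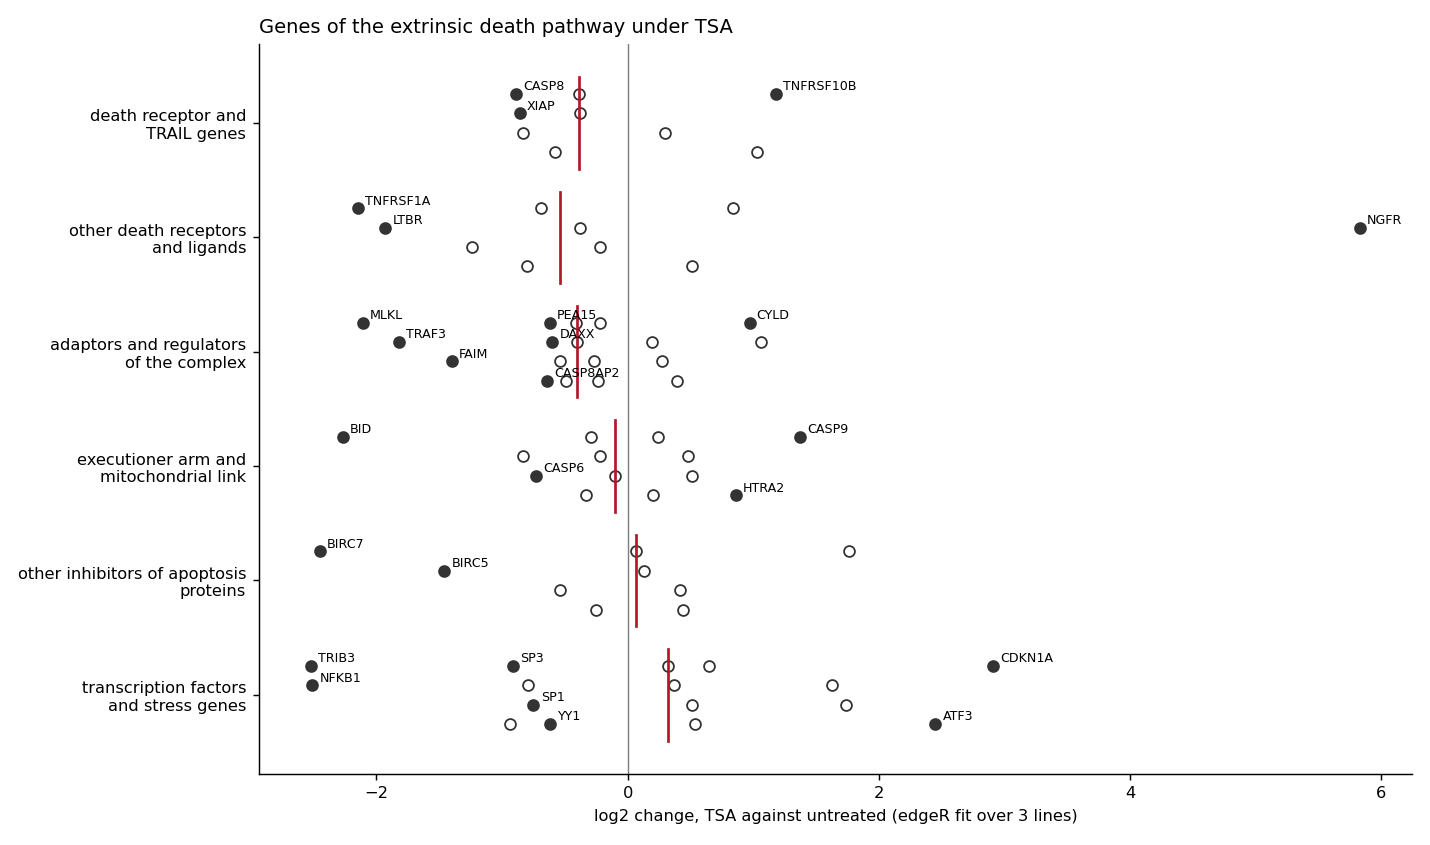
Fitted log2 change under TSA against untreated for the 9 tested members and the tested genes of the 5 lists; each point is 1 gene, filled and named points passed an adjusted p of 0.05, and the red line is the list's median; 1 gene of the last list is not drawn. TRIB3 (-2.52), NFKB1 (-2.51) and BIRC7 (-2.45) lie at the low end and NGFR (5.83) and CDKN1A (2.91) at the high end, beside TNFRSF10B at 1.18 and CASP8 at -0.89.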

How the data were processed

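For each library the authors deposited unnormalized read counts by gene symbol, as the values and the file headers show. Beside the counts stand the authors' RPKM values, per the file headers, which divide by the length of a gene's longest transcript. Poly(A) RNA was made into NEBNext Ultra libraries, per the labels' protocols, and the submitters' processing notes name the builds GRCh38 and hg38; aligner, counter and strand handling are not given in the sources used. An entry naming no gene, found in 11 tables, holds no count and was dropped; the totals implied by RPKM exceed the listed counts by 0.182 to 0.229%. Of 26 symbols turned into dates, none is a member.

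Counts were tested with edgeR 4.0.16 (R 4.3.3), quasi-likelihood F test, TMM scaling (factors 0.891 to 1.109), filterByExpr by condition (16394 genes kept), condition and cell line as terms over all 12 libraries (6 residual degrees of freedom, common biological coefficient of variation 0.295), Benjamini-Hochberg adjustment over all genes. DESeq2 1.42.0 was an alternative. CPM values of the members and list genes are TMM-scaled. Those of the markers, the overlapping genes, the check of the S2101 libraries and the CPM of 3 counts are scaled by library total only. Levels are compared between genes in RPKM. Depth was 14468304 to 19061367 counts per library. The cell line labels pair the libraries: deviations from the condition means correlated at 0.674 to 0.957 within a line and at most at -0.217 between lines. Taking deviations from a mean over the lines by itself pushes correlations between lines to negative values, so only the within-line values bear on the pairing. Ratios were tested over 3 lines by an exact sign-flip permutation. The members, gene lists and naming rules (all members; up to 5 genes called under TSA per list, by size of change; the 2 most alike genes per member) were chosen with earlier results of these data known. The scripts were tested on simulated data. Of the genes the naming rule gives, 1 is not reported here.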

Additional observations from a re-analysis of the deposited data

Results flagged for a closer look

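Values in which 1 line moved against another by more than 1 on the log2 scale are given here, each as the highest minus the lowest line; with 1 library per line and condition the differences between lines were not tested. Under TSA against untreated, they were 2.63 for TNFRSF10A (HCT116 higher, MHCC97H and A549 lower), 2.02 for TNFRSF10B (MHCC97H and A549 higher, HCT116 slightly lower), 2.17 for FAS (MHCC97H higher, A549 lower), 1.21 for TNFRSF10D and 1.13 for FADD (both higher in HCT116 and lower in MHCC97H and A549). Under GSK126 against untreated it was 1.34 for FAS, higher in MHCC97H and slightly lower in A549, with 44 and 9 reads behind the MHCC97H value. HCT116 also differs from the other lines in medium, and line and medium cannot be told apart.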

How the results depend on the processing

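Replicates are the lines MHCC97H (1), A549 (2) and HCT116 (3). Members called numbered 3 under TSA against untreated, 3 under TSA against GSK126 and 2 under TSA against S2101. None remained without the replicate block, where the line term is left out (0, 0 and 0). Over all genes, 1.59%, 0.0854% and 0% were called there. With only the 6 libraries compared none remained either (0, 0 and 0), and 0%, 0.879% and 0% of all genes were called. For TSA against untreated, 4768 genes had an unadjusted p under 0.05 in that fit. Leaving out 1 line gave 0 to 6 members in each of the 3 comparisons, and leaving out the A549 library labelled S2101 gave 1 in the last. Over all genes, the calls of TSA against untreated numbered 260 without the replicate block, 12 to 6487 with a line left out and 6579 by DESeq2. The member count of GSK126 against untreated became 1 in the 9 libraries other than TSA. Between lines, leaving out 1 condition gave 1 to 4 (MHCC97H against A549), 4 to 7 (MHCC97H against HCT116) and 0 to 4 (A549 against HCT116, with 2 by DESeq2 and 0 with no condition term). For A549 against HCT116, DESeq2 called 48.1% of all genes and the fit with no condition term 29.4%. The settings applied to the 5 lists were chosen after seeing the data: without the block and with 6 libraries each list had 0 genes called under TSA, and leaving out a line gave 0 to 5 for other death receptors, 0 to 7 for adaptors, 0 to 9 for the executioner arm, 0 to 2 for inhibitors of apoptosis and 0 to 9 for transcription factors. Changes near 0 reversed: under TSA, FAS ran from -0.85 to 0.44 (without A549) and TNFRSF10D from -0.11 (without HCT116) to 0.58 with a line left out; under GSK126, TNFRSF10D to 0 with RLE size factors and with no filter on low counts, 0.03 with a stricter filter (10 CPM in 3 libraries), with 6 and with 9 libraries, 0.05 without the block and from -0.15 to 0.08 (without MHCC97H or A549) with a line left out, and FADD to 0.01 with the stricter filter and with 6 libraries and from -0.09 to 0.08 (without A549); under S2101, CFLAR from -0.02 (without HCT116) to 0.22. The cause was not tested. Otherwise 634 single values kept direction and call or, for ratios within a line, stayed within the SD over lines. Of the other single values, 150 lost their call and 4 gained one. Of the counts and ratios, 110 stayed close to the main value and 46 moved. Close here means a count within a fixed factor of the main one, or a mean ratio change within 1 SD of it. A pseudocount of 5 CPM moved 6 within-line values of TNFRSF10C, TNFSF10 and FAS, all low in reads. Depth limits TNFSF10, FAS and TNFRSF10C.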
